A study of Oncorhynchus mykiss with 6 samples.

Results

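miR-221 and miR-222 were examined in livers of rainbow trout (Oncorhynchus mykiss) that had been warmed at a constant rate to 24 °C (heat) or kept at 18 °C (control), with 3 small RNA libraries per group. All names of known families that read miR-221 or miR-222 before the final x, y or z were taken, which gave 5 of the 2730 names listed (522 of known families and 2208 predicted). They are miR-221-x, miR-221-y, miR-221-z, miR-222-x and miR-222-y. The labels describe the fish as female and 150 days old. How many fish each library holds, and whether any fish is shared, is not stated. The p-values therefore reflect the spread between libraries only, and part of that spread may be technical. The files carry no genome positions, and no genome was used here, so whether the trout genes lie side by side was not examined.

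In vertebrates, miR-221 and miR-222 are usually encoded close together and can be made from one primary transcript. Each precursor is a hairpin whose 5′ and 3′ arms can both give a mature miRNA. In mammals the main products are the 3′ arms, which share a seed, the bases with which a miRNA recognises its targets. Known targets in human cells include the cell-cycle inhibitor CDKN1B (p27) and the receptor KIT. In mammals the pair is studied in endothelium, vascular smooth muscle, activated hepatic stellate cells and liver tumours.

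The deposited sequences show which names can share targets, so they are given here 5′ to 3′ as DNA letters, with the seed (bases 2 to 8) in capitals.
miR-222-y: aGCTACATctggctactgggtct
miR-221-z: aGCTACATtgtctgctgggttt
miR-221-y: aGCTACATtgtctgctgggtttt
miR-222-x: tGCTCAGTaggcagtgtagatc
miR-221-x: aCCTGGCAtacaatgtagattt

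miR-222-y, miR-221-z and miR-221-y share the seed GCTACAT, and no other of the 2730 names has it. Counted from the 5′ end, miR-221-y and miR-222-y have the same first 8 bases and the same letter at 12 of 23 positions. miR-221-z and miR-221-y are identical over 22 bases, and miR-221-y has 1 T more at its 3′ end. Those 2 names are 2 lengths of one sequence, and the sources used here do not say how reads were divided between them. The seeds of miR-222-x and of miR-221-x were each found under that name alone. The files do not define x, y and z. miR-221-x begins like the human 5′ arm of miR-221, and the y and z names begin like the human 3′ arms.

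A computed pairing of the arms (RNAduplex) gave 17 base pairs for miR-221-x with miR-221-z, at a predicted -23.8 kcal/mol. For miR-222-x with miR-222-y it gave 17 base pairs at -25.7 kcal/mol. Across the families, miR-222-x paired with miR-221-z at 18 base pairs and -28.9 kcal/mol, while miR-221-x paired with miR-222-y at 14 base pairs and -12.9 kcal/mol. The predicted pairing of miR-222-x was thus stronger with the 3′ arm of miR-221 than with that of miR-222.

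Both families were moderately abundant in trout liver. Together the 5 names took 0.462%, 0.348% and 0.324% of counts in heat replicates 1 to 3, against 0.266%, 0.565% and 0.314% in control replicates 1 to 3. The lowest and the highest share were both in control libraries. By mean CPM (counts scaled to a common library size and, by TMM, for library composition), the miR-222 family ranked 30 and the miR-221 family 32 among 381 known families. Of all counts of the 5 names, miR-222-y held 44.2%, miR-221-z 36.2%, miR-221-y 12.3% and miR-222-x 7.35%, while miR-221-x had 30 counts in all.

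The names, of 22 or 23 bases each, kept nearly one order of level. miR-222-y ranked 35 of 522 known names by mean CPM, followed by miR-221-z at 41, miR-221-y at 65, miR-222-x at 74 and miR-221-x at 290. By counts within a library, miR-222-y exceeded miR-221-z in 5 of 6 libraries, the exception being control replicate 2, and the 2 levels overlapped across libraries. miR-221-z exceeded miR-221-y in 6 of 6 libraries, by 2.34 to 3.99 times. miR-221-y exceeded miR-222-x in 6 of 6 libraries, by 1.32 to 2.73 times, although their CPM ranges overlapped between libraries.

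Totals were 9267658 to 12778484 counts per library. Control replicate 2 and heat replicate 1 stood apart from the other 4 libraries, with TMM factors of 1.25 and 1.24 against 0.87 to 0.92 and with 2077 and 2157 names detected against 1579 to 1701. They were also the deepest libraries, at 11894384 and 12778484 counts, against 11117223 at most in the others. The part of depth in the names detected was not tested. Hepatocyte miRNAs (miR-122, miR-192, miR-194 and miR-148, 9 names) summed to 239502 to 385237 CPM in heat and 225527 to 390348 in control libraries. Retina and neural miRNAs (miR-124, miR-9, miR-96, miR-182 and miR-183, 9 names), checked because a protocol field speaks of retina, summed to 55.8 to 93 CPM in heat and 60.0 to 102.2 CPM in control libraries. No name of either list was at 0 in all libraries.

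None of the 4 names with enough counts passed the test of 24 against 18 °C. edgeR's quasi-likelihood test, fitted over 651 names with Benjamini-Hochberg adjustment at 0.05, called 0 of the 4, with an adjusted p of 0.995 for each, and 0% of all 651 names. At an unadjusted p under 0.05 it had 20 of 651 names (3.07%) and again 0 of the 4. DESeq2 called 2 of 2730 names and edgeR without a count filter called 23 of 2730, none of them of miR-221 or miR-222. For 0 of the 4 did the heat libraries lie wholly above or below the controls, which was so for 8.29% of the 651 names and 5.62% of the 249 known names among them. The 2730 names hold 1685 distinct sequences, so counts and shares over all names include some sequences more than once. Fitted folds were above 1 for 2 of the 4 (miR-221-y and miR-222-y), against 35.3% of the known names. Both figures depend on the scaling. The median log2 fold change of known names was -0.118 in this fit and -0.009 with TMM over known names alone. In that second fit miR-221-z was also above 1 (log2 fold change 0.069).

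miR-222-y, the most abundant name and a 3′ arm, varied little between libraries. It stood at 1652, 1889 and 1784 CPM in heat replicates 1 to 3, against 1678, 1365 and 1855 CPM in control replicates 1 to 3. The groups overlapped, and the lowest value was that of control replicate 2. That place rests on the TMM scaling. Scaled by library totals alone, the values were 2046, 1643 and 1620 CPM in heat replicates 1 to 3. In control replicates 1 to 3 they were then 1536, 1707 and 1652 CPM, with control replicate 1 lowest. After TMM scaling, means were 1775 ± 119 CPM in heat and 1633 ± 248 CPM in control (SD, n = 3 each). On the log2 scale the fitted difference was 0.12 ± 0.23 (SE), with a 95% interval of -0.40 to 0.64 that leaves out a 2-fold change in either direction. With 1 library left out it ran from 0.0028 without control replicate 2 to 0.27 without control replicate 3. The value of 0.0028 is far under the SE of 0.23 with all libraries, so no direction can be read from it. The SD of its log2 CPM was 0.10 within heat and 0.23 within control, below the medians of 0.27 and 0.39 over 131 known names above a mean log2 CPM of 5.

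miR-221-z, the shorter form of the miR-221 3′ arm, had 1311, 1341 and 1175 CPM in heat libraries, against 861, 2064 and 1064 CPM in control libraries. The 3 heat values lay close together between the control values, with control replicate 2 far above and the other 2 controls below every heat library. Means were 1276 ± 88.5 CPM in heat and 1329 ± 644 CPM in control (SD, n = 3 each), and the log2 fold change was -0.06 ± 0.34 (SE, 95% interval -0.85 to 0.73). The sign rested on single libraries. The log2 fold change was 0.40 without control replicate 2, -0.32 without control replicate 1 and 0.034 without heat replicate 3. The lowest adjusted p over these and all other settings was 0.719.

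miR-221-y, the longer form, measured 560, 469 and 351 CPM in heat libraries, against 216, 622 and 390 CPM in control libraries. The control values again enclosed the heat values. The log2 fold change was 0.17 ± 0.39 (SE, 95% interval -0.74 to 1.08), so a 2-fold higher level at 24 °C lies within the interval. It was 0.59 without control replicate 2, 0.36 without heat replicate 3, 0.026 without heat replicate 1 and -0.17 without control replicate 1.

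miR-222-x, from the other arm of miR-222, measured 205, 299 and 256 CPM in heat libraries, against 153, 470 and 219 CPM in control libraries. Control replicate 1 was lowest and control replicate 2 highest, as for both forms of the miR-221 3′ arm. The log2 fold change was -0.15 ± 0.42 (SE, 95% interval -1.12 to 0.82), and a 2-fold lower level lies within the interval. Without control replicate 2 it was 0.44, without control replicate 1 it was -0.47, and it was 0.0041 without heat replicate 1.

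miR-221-x was at the limit of detection and did not pass the count filter. It had 11, 0 and 2 counts in heat replicates 1 to 3, against 5, 2 and 10 counts in control replicates 1 to 3. The 0 in heat replicate 2, of 9267658 counts, allows up to 0.398 per 1e6 counts of that library without TMM scaling (exact binomial 95% interval). The smallest count above 0 was 2 in every library, so whether lower counts were written as 0 is not known. No difference was detectable at this depth. The limit of 0.398, and the intervals on shares given further on, reflect counting error alone, because no molecular identifiers separate molecules from PCR copies.

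**Figure D1:**
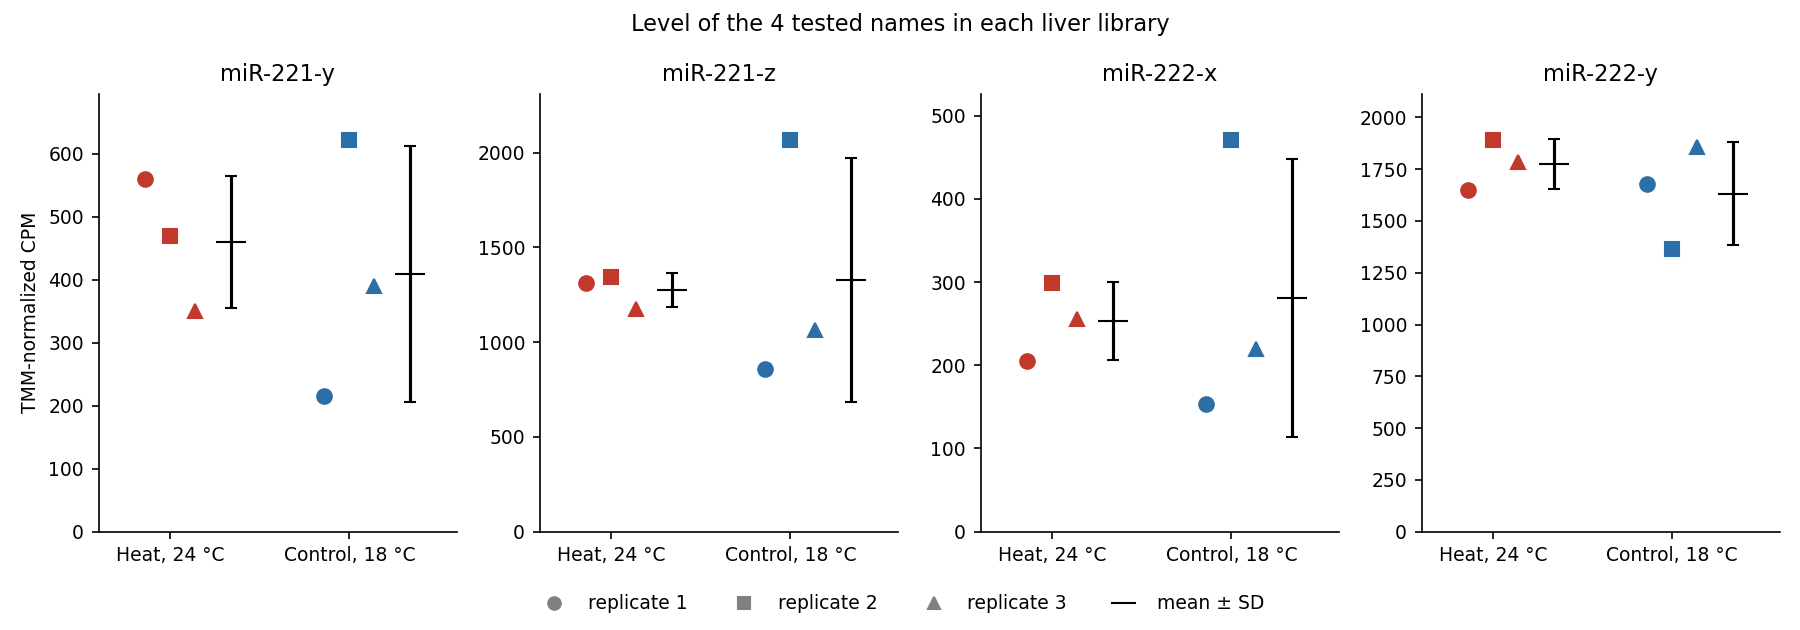
TMM-normalized CPM (linear axis from 0) of miR-221-y, miR-221-z, miR-222-x and miR-222-y in the 3 heat and 3 control libraries, with the group mean and SD beside the points. Heat and control libraries overlap in every panel, and control replicate 2 is highest for miR-221-y, miR-221-z and miR-222-x and lowest for miR-222-y.

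Summed over names, the miR-221 family averaged 1756 ± 218 CPM in heat and 1734 ± 870 CPM in control (SD, n = 3 each). In a fit of 404 families and other sequences its log2 fold change was 0.02 ± 0.36 (SE), with a 95% interval of -0.82 to 0.85. The value was 0.46 without control replicate 2 and -0.28 without control replicate 1. For the miR-222 family the means were 2046 ± 119 CPM in heat and 1897 ± 129 CPM in control (SD, n = 3 each). The fitted log2 difference was 0.11 ± 0.21 (SE), with a 95% interval of -0.37 to 0.59. edgeR's adjusted p was 0.999 for both, it called 0% of the 404 units, and 8 units had an unadjusted p under 0.05. DESeq2 called 1 of 1552 units and edgeR without a filter 6. Both family intervals leave out a 2-fold change in either direction. After TMM scaling, the range over control libraries was wide for miR-221 (1056, 2714 and 1432 CPM) and narrow for miR-222 (1795, 1855 and 2042 CPM). The narrow range rests on that scaling. Unscaled, miR-222 had 16245, 27303 and 20530 counts in control replicates 1 to 3, of library totals of 9692590, 11894384 and 11117223. Control replicate 2 then had the highest miR-222 share of the control libraries.

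**Figure D2:**
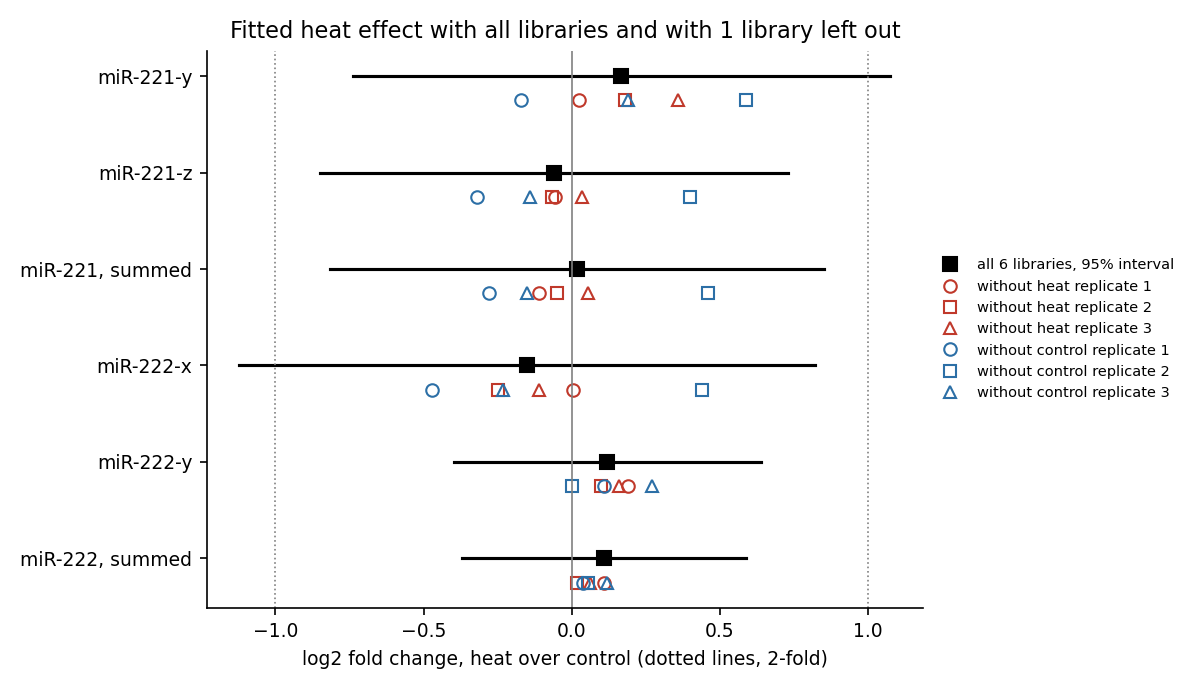
Log2 fold change of heat over control for the 4 tested names and the 2 family sums, as black squares with 95% intervals from edgeR, and below each the value with 1 library left out (open symbols, red for a heat and blue for a control library). All intervals include 0, and leaving out control replicate 2 or control replicate 1 moves miR-221-y, miR-221-z and miR-222-x in opposite directions.

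Ratios of counts within a library do not depend on how libraries are scaled. The miR-222-x share of miR-222 counts was 11.04% (exact binomial 95% interval 10.68% to 11.4%), 13.7% (13.2% to 14.2%) and 12.5% (12.07% to 13.02%) in heat replicates 1 to 3. In control replicates 1 to 3 it was 8.38% (7.96% to 8.82%), 25.6% (25.1% to 26.2%) and 10.6% (10.15% to 10.99%). Control replicate 2 had the highest share of all, and the other 2 controls lay below every heat library. The group means were 12.4% ± 1.32 in heat and 14.9% ± 9.39 in control (SD, n = 3 each). The difference of mean log2 ratios of x to y was -0.13 (two-sided exact permutation p = 1), and 0.44 without control replicate 2 (exact permutation p = 0.2). With 3 libraries against 3 the smallest p this test allows is 0.1, and 0.2 with 3 against 2.

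The summed miR-221 to miR-222 ratio was 1.01, 0.827 and 0.748 in heat replicates 1 to 3, against 0.588, 1.46 and 0.701 in control replicates 1 to 3. miR-222 outnumbered miR-221 in 4 of 6 libraries, the exceptions being heat replicate 1 and control replicate 2. The difference of mean log2 ratios was 0.02 (two-sided exact permutation p = 1). It was 0.41 without control replicate 2 (exact permutation p = 0.2) and -0.25 without control replicate 1 (exact permutation p = 0.8). Over the 3 ratios tested (this one and the x share of each family), no adjusted p can fall under 0.1.

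For miR-221 the x share of counts was at most 0.0371% in heat (replicate 1, exact binomial 95% interval 0.0185% to 0.0664%) and at most 0.0695% in control (replicate 3, 0.0333% to 0.128%). The difference of mean log2 ratios of x to the other arm was -1.16 (two-sided exact permutation p = 0.5), from 0 to 11 counts of miR-221-x per library. It was -0.19 without heat replicate 2, the library with 0 counts, and -2.29 without control replicate 2. The x arm was thus a sizeable part of miR-222 and nearly absent from miR-221 in all 6 libraries.

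The ratio of the 2 lengths of the miR-221 3′ arm ran from 2.34 to 3.99 over the 6 libraries. miR-221-z was 2.34, 2.86 and 3.35 times as abundant as miR-221-y in heat replicates 1 to 3, against 3.99, 3.32 and 2.73 times in control replicates 1 to 3. The groups overlapped, and control replicate 2 lay within the range of the other libraries here. This ratio was chosen after its values were seen and was not tested.

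**Figure D3:**
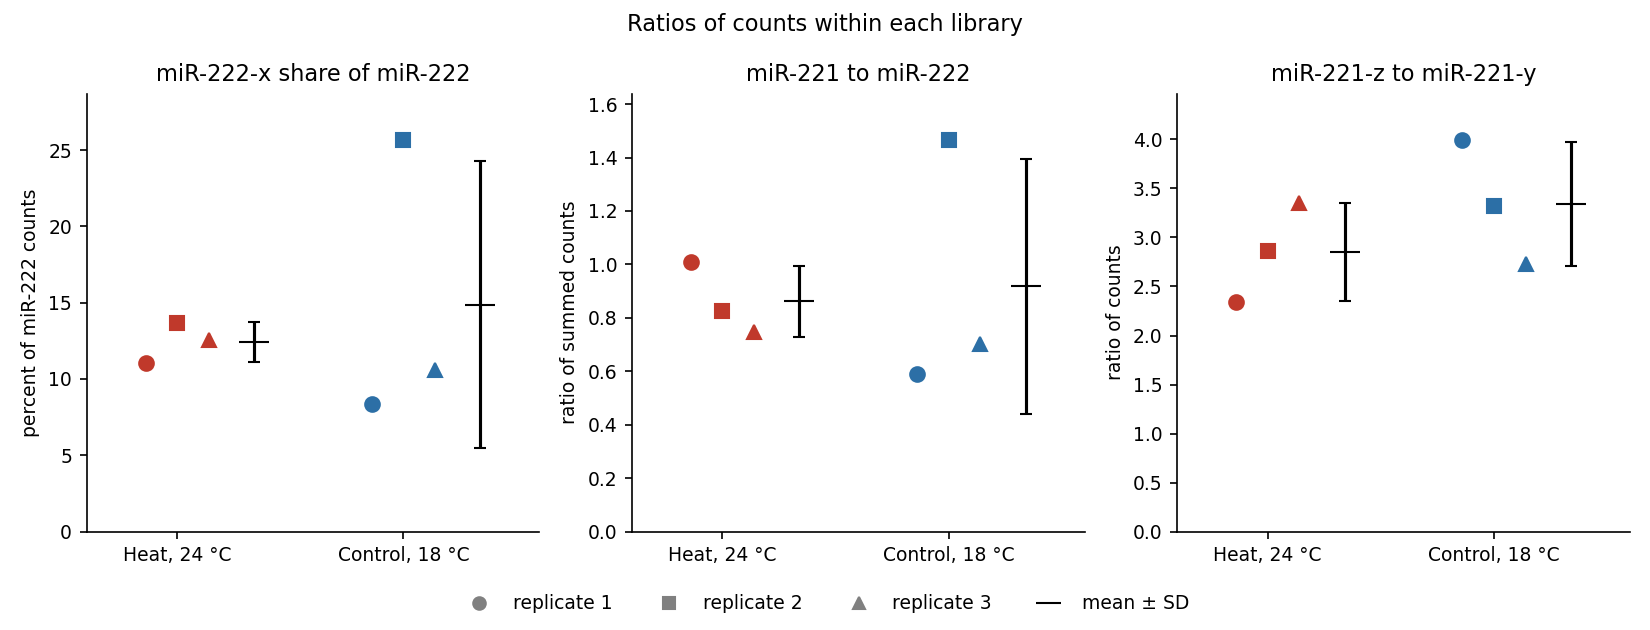
The miR-222-x share of miR-222 counts (percent), the ratio of summed miR-221 to miR-222 counts and the ratio of miR-221-z to miR-221-y counts in each library, on linear axes from 0, with group mean and SD. Control replicate 2 is the highest point in the first and second panels, at 25.6% and 1.46, and lies inside the range of the other libraries in the third.

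After TMM scaling, miR-222-x deviated in the direction of miR-221 in control replicates 1 and 2. miR-222-y then lay close to the other libraries in control replicate 1 and below them in control replicate 2. By library totals alone, miR-222-y was lowest in control replicate 1 (1536 CPM). Control replicate 2 (1707 CPM) then lay within the range of the other libraries. The values that follow are after TMM scaling. In control replicate 2, log2 CPM lay above the mean of the other 5 libraries by 0.86 for miR-221-z, 0.72 for miR-221-y and 1.09 for miR-222-x, and was -0.37 for miR-222-y. In control replicate 1 the values were -0.65, -1.12 and -0.85 for the first 3 names and -0.02 for miR-222-y. Across the 6 libraries, which share these extremes, Pearson's r of log2 CPM with miR-221-z was 0.94 for miR-222-x, 0.88 for miR-221-y and -0.67 for miR-222-y, given as a description. Spearman's rho was 0.83, 0.89 and -0.26 in the same order of names. Without control replicates 1 and 2, the libraries farthest from the median of miR-221-z, r was 0.36, 0.73 and -0.29, so the relation of miR-222-x to miR-221-z rests on those libraries. Without control replicate 2 alone, r with miR-221-z was 0.81 for miR-222-x and 0.30 for miR-222-y. The sign for miR-222-y thus changes with the libraries kept. Between miR-222-x and miR-222-y, the arms of one family, r was -0.52 over 6 libraries and 0.76 without control replicate 2. All these r are after TMM scaling. Without it control replicate 2 was not the lowest library for miR-222-y, so the sign of its r may also depend on the scaling. No r was computed without TMM.

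**Figure D4:**
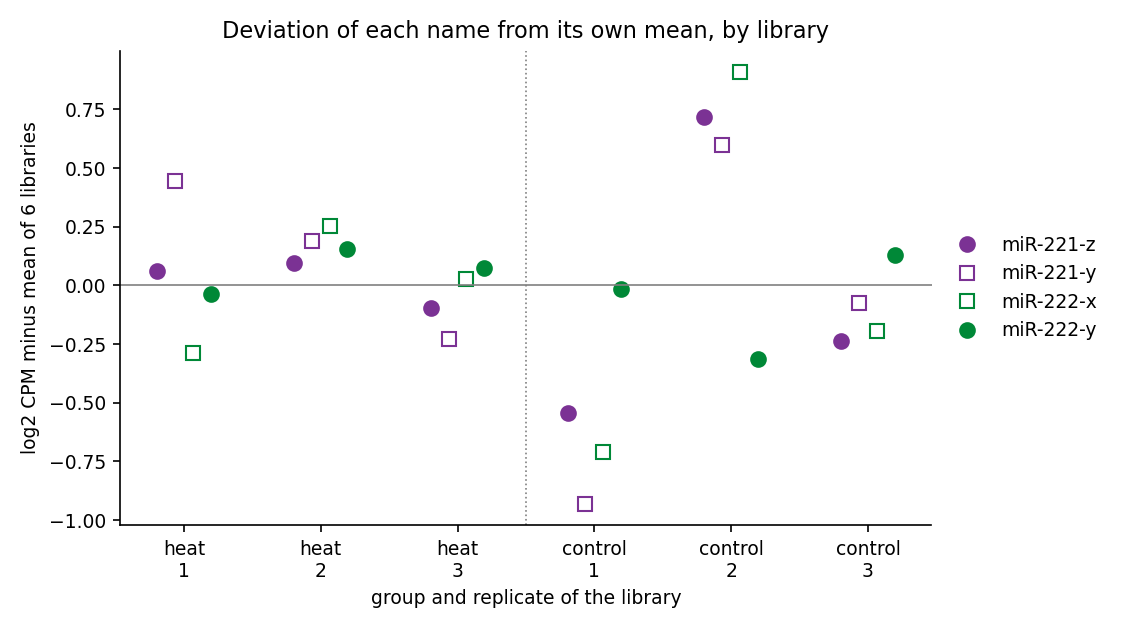
Log2 TMM-normalized CPM of each tested name minus its mean over the 6 libraries, by library, heat left of the dotted line and control right of it. In control replicate 2 miR-221-z, miR-221-y and miR-222-x lie 0.60 to 0.91 above their means while miR-222-y lies at -0.31, and in control replicate 1 the same 3 names lie at -0.54 to -0.93.

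Other known miRNAs also deviated more in control replicate 2 than in the other libraries. The SD of deviations over 131 known names was 0.86 in control replicate 2, against 0.42 to 0.50 in the other libraries, and there 64.9% of these names deviated less than miR-221-y, 83.2% less than miR-222-x and 68.7% less than miR-221-z. In control replicate 1, 96.9% of them deviated less than miR-221-y, 90.1% less than miR-222-x and 82.4% less than miR-221-z. All 8 cell type lists had their highest or lowest sum in control replicate 2, which was the lowest for the hepatocyte list and the highest for the retina and neural list given above. A sum mostly follows its most abundant names, and members of 1 list could differ. In control replicate 2, miR-122-x (147800 CPM), miR-199-x (39490) and miR-150-x (39.9) were at their lowest. miR-148-y (29690), miR-143-y (21590) and miR-146-x (30060), of the same lists in that order, were at their highest there. Leukocyte miRNAs (11 names) summed to 16776 to 18616 CPM in heat libraries, against 32610 CPM in control replicate 2 and 16865 and 18073 CPM in the other controls. Pancreas miRNAs (5 names) were at 184 to 291 CPM in heat libraries, against 346 CPM in control replicate 2 and 150 and 194 CPM in the other controls. Erythrocyte miRNAs (5 names) were at 4230 to 5848 CPM in heat libraries, against 6708 CPM in control replicate 2 and 3896 and 5056 CPM in the other controls. Endothelial miR-126 (2 names) was at 23044 to 40621 CPM in heat libraries, against 21456 CPM in control replicate 2 and 32806 and 41489 CPM in the other controls. Stromal and smooth muscle miRNAs (8 names) were at 86258 to 140012 CPM in heat libraries, against 83884 CPM in control replicate 2 and 141081 and 146361 CPM in the other controls. Skeletal muscle miRNAs (6 names) were at 17.9 to 23.3 CPM in heat libraries, against 29.97 CPM in control replicate 2 and 14.7 and 27.6 CPM in the other controls. No listed marker was at 0 in all libraries. The part of these markers in the level of miR-221 was not tested, and in bulk liver fewer cells of a type and less RNA per cell cannot be told apart.

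Of 245 tested known names of other families, those most like miR-221-z over the 6 libraries were miR-729-y (r = 0.98), miR-93-x (0.98), miR-725-x (0.97), miR-107-x (0.97) and miR-10544-x (0.95). Without the 2 farthest libraries r was 0.90, 0.84, 0.47, 0.85 and 0.79 for these names. As the highest of 245 values over only 6 libraries, these r are high by selection. The values with fewer libraries come from the same data and are no independent check. The same holds for the least alike names and for miR-222-y below. Some of them were near the limit of detection, so their r rests partly on few counts. miR-729-y ranged from 0.45 to 2.82 CPM, miR-725-x from 0.68 to 8.67 CPM and miR-107-x from 0.34 to 21.6 CPM. miR-93-x had 89.2, 103.2 and 92.1 CPM in heat libraries, against 66.0, 196 and 77.5 CPM in control libraries, which are lowest in control replicate 1 and highest in control replicate 2 like miR-221-z. Least like it were miR-210-x and miR-499-x (r = -0.98 for both, and -0.91 and -0.72 without those libraries). miR-210-x had 252, 267 and 279 CPM in heat libraries, against 399.8, 149.8 and 372 CPM in control libraries, the reverse order in the controls. The names of miR-210 differed in this. In control replicates 1 to 3, miR-210-y (126.8, 93.4 and 119.8 CPM) had the order of miR-210-x. miR-210-z (159.5, 207.9 and 161.3 CPM) had the order of miR-221-z there.

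The names most like miR-222-y were miR-459-y (r = 0.98), miR-551-x (0.96), miR-10926-x (0.96), miR-26-x (0.95) and miR-29-x (0.92), with 0.91, 0.91, 0.90, 0.58 and 0.90 without heat replicate 2 and control replicate 2. Of these, miR-551-x (0.34 to 1.82 CPM) and miR-10926-x (2.42 to 6.77 CPM) were low, so their r rests on few counts. miR-26-x, a major miRNA of this liver, had 51050, 76300 and 69640 CPM in heat libraries, against 68700, 22020 and 66590 CPM in control libraries. Its lowest value was in control replicate 2, as for miR-222-y after TMM scaling. Least like miR-222-y were miR-190-x and miR-462-y (r = -0.97 for both, and -0.997 and -0.787 without those libraries). The lists for miR-221-z and miR-222-y have no name in common. This follows from their r of -0.67 with each other over the same 6 libraries after TMM scaling and adds nothing to it.

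miRNAs with a part in vessels and stellate cells, the cells in which miR-221 and miR-222 are studied in mammals, had no member past the test. The list (miR-126, miR-143, miR-145, miR-199, miR-214, miR-21, miR-29, miR-92, miR-23, miR-24, miR-27 and miR-218) had 23 tested names. edgeR called 0 of the 23, as it called 0% of all 651 names tested. Folds were above 1 for 13 and below 1 for 10, against 35.3% above 1 among known names. The median log2 fold change of the list was 0.04, against -0.12 over known names and -0.02 over all names tested. With TMM over known names alone the median over known names was -0.009. The list was not summarised in that fit. By level the leading names were miR-199-x, of stromal cells, at 87240 ± 26490 CPM in heat and 88560 ± 42540 CPM in control, and endothelial miR-126-y at 30830 ± 8897 CPM in heat and 29870 ± 10130 CPM in control (SD, n = 3 each). Their log2 fold changes were -0.02 ± 0.43 and 0.05 ± 0.34 (SE). miR-21-x, linked to fibrosis and growth, had 0.05 ± 0.22, smooth muscle miR-143-y -0.08 ± 0.24 and miR-199-y -0.35 ± 0.27 (SE). Summed, the list was at 149738 to 232421 CPM in heat and 144618 to 229850 CPM in control libraries, lowest in control replicate 2 and heat replicate 1, the libraries with the high TMM factors. A high factor itself lowers the CPM of a library, and the order of these sums without TMM was not examined.

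In the cell type lists edgeR also called 0 names, as it did over all 651 names tested. Median log2 fold changes were -0.11 for hepatocyte (9 tested), -0.08 for erythrocyte (5), -0.45 for leukocyte (8), 0.09 for endothelial (2), 0.00 for stromal and smooth muscle (8), -0.22 for skeletal muscle (4), -0.22 for pancreas (4) and -0.17 for retina and neural names (6). Their most abundant names had log2 fold changes of -0.02 (miR-122-x), -0.16 (miR-451-x), -0.34 (miR-146-x), 0.05 (miR-126-y), -0.02 (miR-199-x), -0.27 (miR-1-z), 0.62 (miR-375-y) and 0.36 (miR-124-y) in the same order of lists. Of these 8 names only miR-375-y had heat libraries wholly above the controls. Heat libraries lay wholly above or below the controls for 5.62% of the 249 known names tested. The other tested pancreas names, miR-375-x, miR-216-x and miR-217-x, overlapped between groups, with log2 fold changes of 0.31, -0.76 and -2.12.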

How the data were processed

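Small RNA counts of 6 rainbow trout liver libraries were used, 3 per group, grouped and numbered by their titles. The deposited files give, per the file headers, a count and a TPM value per miRNA name and library. The counts are whole numbers, used as deposited by the authors. The TPM values, scaled by the authors, write 0.01 where the count is 0 and sum to 1005406 to 1008153 per library; they were used to rank levels in one alternative. The sources used here do not give the aligner, genome build, miRNA database or small RNA preparation; the protocol field describes rRNA-depleted RNA and speaks of retina.

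The test of heat against control was edgeR's robust quasi-likelihood test (edgeR 4.0.16, R 4.3.3) after TMM, on the 651 names that filterByExpr kept at a minimum count of 10, with Benjamini-Hochberg adjustment over all of them. The SE is the size of the log2 fold change divided by the square root of F. A second fit summed known names per family and counted each other sequence once. Ratios used 0.5 added to each count and exact permutation tests (scipy 1.17.1). Correlations used log2(CPM + 0.1), and pairing RNAduplex 2.7.2. Alternatives included DESeq2 1.42.0 and limma 3.58.1. The procedure was tested on simulated counts. The members and lists were chosen with earlier results of these data known. Named were all members, the 5 most and 2 least alike known names, the most abundant name per list and the 5 most abundant of the vessel list. One further list is not reported here.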

Additional observations from a re-analysis of the deposited data

How the results depend on the processing

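With 3 libraries per group, no result on miR-221 or miR-222 passed the threshold in any setting, and a p that misses it does not show equal levels. For the ratios this was fixed in advance, because the smallest exact permutation p is 0.1, above the threshold of 0.05. The log2 fold changes of miR-222-y and of the miR-222 family were above 0 in all 15 and 14 alternatives. Their lowest values were only 0.0028 and 0.018, and the alternatives share the same libraries, so this is no evidence of a heat effect. The miR-221-x share and the ratio of miR-221-z to miR-221-y also kept their sign in the alternatives run. The other results changed sign in at least 1 setting, and the cause was not tested. Names called were 2 with the DESeq2 Wald test and 23 with no count filter, units called 1 and 6, and 0 in the other settings (0 to 0 with 1 library left out, with 26 to 49 names and 10 to 26 units at an unadjusted p under 0.05).

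With 1 library left out, log2 fold changes ran from -0.17 to 0.59 (miR-221-y), -0.32 to 0.40 (miR-221-z), -0.47 to 0.44 (miR-222-x), 0.0028 to 0.27 (miR-222-y), -0.28 to 0.46 (miR-221 family) and 0.018 to 0.12 (miR-222 family). Differences of log2 ratios ran from -0.51 to 0.44 (miR-222-x share), -2.29 to -0.19 (miR-221-x share) and -0.25 to 0.41 (miR-221 to miR-222). Without control replicate 2 and heat replicate 1 together, the sign changed for miR-221-z (0.35), miR-222-x (0.54) and the miR-222-x share (0.54). limma-voom with quality weights, chosen after the data were seen, gave 0.28 for miR-221-z and 0.39 for miR-222-x. Known names alone gave 0.069 for miR-221-z. The miR-221 family was at -0.096 with library totals alone, -0.0085 with DESeq2 and -0.0059 without a filter. The ratio of the most abundant names was -0.087.

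The labels do not say whether equal replicate numbers pair the libraries, and the main fit used no pairing. Correlations of same-number deviations were 0.056, -0.193 and 0.171, which are too few to settle it. The replicate block called 0 names and gave 0.045 for miR-221-z, where the sign changed, and -0.0021 for miR-222-x.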

Other observations

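One further name lies inside a member sequence. miR-2481-x (tacattgtctgctgggtttt) is identical to bases 4 to 23 of miR-221-y. It had 2 counts in heat replicate 1 and 3 counts in control replicate 2, the 2 libraries with the most miR-221-y, and 0 in the other 4 libraries.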
